A study of Mus musculus with 6 samples.

Results

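The Slc25 genes encode the mitochondrial solute carriers, and 47 of the 27179 genes listed for these libraries carry a symbol made of Slc25a and a number. The members were taken by that symbol alone and were grouped by the substrate each carrier is known to move. Carriers named otherwise, such as the uncoupling protein Ucp2, are outside the 47. The libraries come from organoids of wild-type mouse small intestine, cultures of intestinal crypt epithelium grown in a gel matrix. For 3 libraries the cultures had received T3, the active thyroid hormone, at 1e-07 M for 17 h, and for the other 3 its vehicle. No label ties a library to its own culture or mouse. The p-values therefore rest on how far these 6 libraries spread, and that spread could be technical.

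Slc25 proteins sit mostly in the inner mitochondrial membrane, which is impermeable to charged metabolites, and most of them exchange one solute for another. They bring ADP, phosphate, acylcarnitines, keto acids, amino acids and cofactors into the matrix and return ATP, citrate and aspartate to the cytosol. In absorptive epithelium they link glutamine and glucose breakdown, fat oxidation and citrulline production to the cytosol, and thyroid hormone is known to raise mitochondrial respiration in many tissues. A few members lie elsewhere, Slc25a17 in peroxisomes and Slc25a46 in the outer mitochondrial membrane.

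Column totals were 29510422 to 29974091 normalized reads in T3 libraries and 28197080 to 28611883 in vehicle libraries. Epithelial markers were abundant in every library, summing to 172537 to 177246 with T3 and 144645 to 151427 with vehicle over 7 genes. Ptprc and Cd3e of the 5 immune markers were at 3 reads or less in every library. Another 2, Itgam and Cd68, reached at least 10 in some library. The 5 summed to 392 to 408 with T3, above the 125 to 160 with vehicle. Acta2, Des and Pdgfra of the 7 fibroblast and muscle markers were likewise at 3 or less, with sums of 255 to 319 with T3 and 309 to 389 with vehicle. The balance of epithelial markers also differed between groups. The 3 stem cell markers summed to 7290 to 7436 with T3 and 29114 to 35528 with vehicle, and the 4 enterocyte markers to 52399 to 62949 with T3 and 27252 to 29699 with vehicle. The part of these marker differences in the Slc25 results was not tested. In these bulk libraries fewer cells of a type and less RNA per cell cannot be told apart.

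Of the 40 Slc25 genes with enough reads to test, 17 rose with T3, 6 fell and 17 were not called. Of the 47 members, 40 had at least 10 normalized reads in at least 3 libraries and were tested with limma on log2(value + 1), with Benjamini-Hochberg adjustment over all 13052 genes that passed the same filter. At an adjusted p under 0.05, 23 of the 40 were called, where 44.8% of all genes tested were called. Of these, 17 were higher with T3, beside 24% of all genes tested, and 6 were lower, beside 20.8%. The median log2 fold change was 0.14 over the tested members and -0.01 over all genes tested. Without regard to sign the medians were 0.23 and 0.19. With upper-quartile scaling 15 members were higher and 6 lower, and with equal column totals 14 and 6, while over all genes the split of 3135 higher and 2716 lower became 2616 and 3474 or 2442 and 3851. The T3 and vehicle libraries did not overlap at 25 members, beside 54.9% of all genes tested. All T3 libraries were above at 19 members, beside 28.4% of all genes, and below at 6, beside 26.5%. Per kilobase of exon, the 47 genes together stood at 75260 ± 1862 normalized reads with T3 and 62353 ± 814 with vehicle (SD, n = 3), a ratio of 1.21 that was 1.17 after upper-quartile scaling and 1.15 after scaling to equal column totals.

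**Figure D1:**
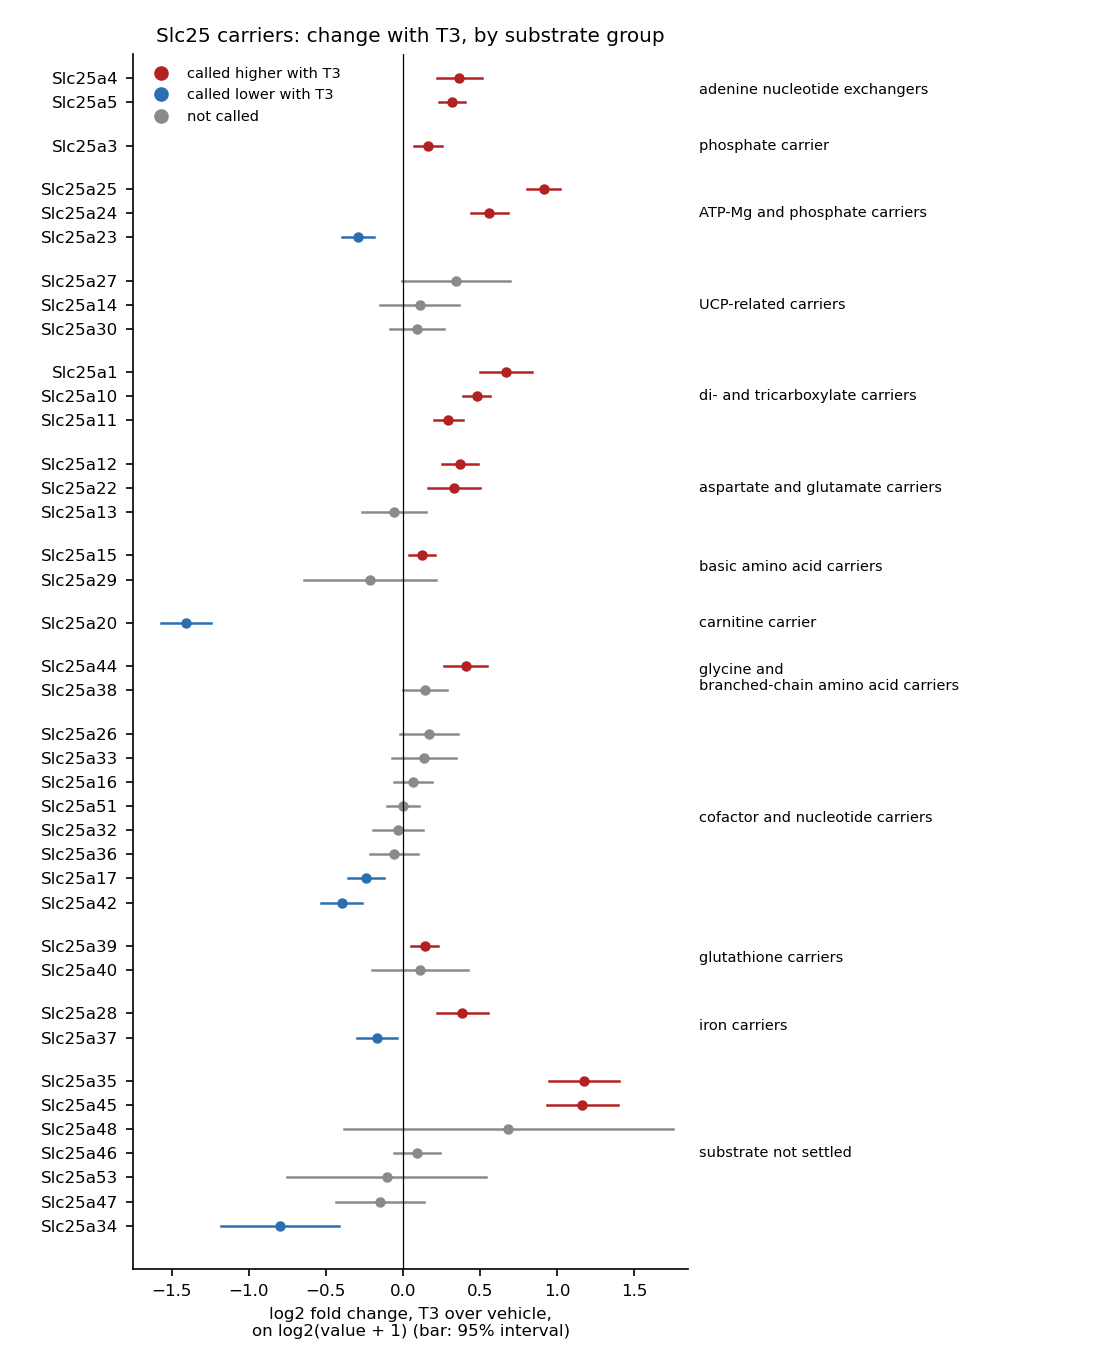
Log2 fold change of 39 of the 40 tested Slc25 genes, T3 over vehicle, on the log2(value + 1) scale, with 95% intervals, grouped by substrate. Red marks 16 genes called higher, blue the 6 called lower and grey the 17 not called, and Slc25a20 stands furthest to the left at -1.41.

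Of the called members 7 moved by at least 0.5 on the log2 scale, 5 upward and 2 downward. These were 12.5% and 5% of the tested members, beside 8.54% and 6.71% of all genes tested. Slc25a20, the carnitine and acylcarnitine carrier that brings long-chain fatty acids to the matrix for oxidation (GRCm38 chromosome 9, 108662098 to 108684641, 9 exons), had 361, 419 and 366 normalized reads in T3 libraries, against 1033, 1045 and 962 in vehicle libraries. Every T3 library was below every vehicle library by a wide margin. The gene fell by 1.41 on the log2 scale (SE 0.07, adjusted p = 4.8e-07), or 2.65-fold, the largest change of any tested member. Slc25a35, a carrier whose substrate is not settled (chromosome 11, 68968131 to 68972515, 5 exons), had 375, 418 and 370 with T3, against 181, 183 and 151 with vehicle, a rise of 2.26-fold (log2 1.17, SE 0.10, adjusted p = 1.38e-05). Its exons share 29 bases with Rangrf on the opposite strand, a gene at 833 ± 36.7 with T3 and 733 ± 43.2 with vehicle. Slc25a45, also without a settled substrate (chromosome 19, 5878466 to 5885768, 6 exons), had 708, 528 and 578 with T3, against 267, 272 and 263 with vehicle. The T3 libraries of Slc25a45 spread more than its vehicle libraries but all lay above them, and the rise was 2.24-fold (log2 1.16, SE 0.10, adjusted p = 1.62e-05). Slc25a34, the close relative of Slc25a35, went the other way at a low level, with 57, 58 and 42 with T3, against 80, 96 and 97 with vehicle (log2 -0.80, SE 0.17, adjusted p = 0.00409). The other 3 of the 7, Slc25a25, Slc25a1 and Slc25a24, rose and are described with their substrate groups.

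**Figure D2:**
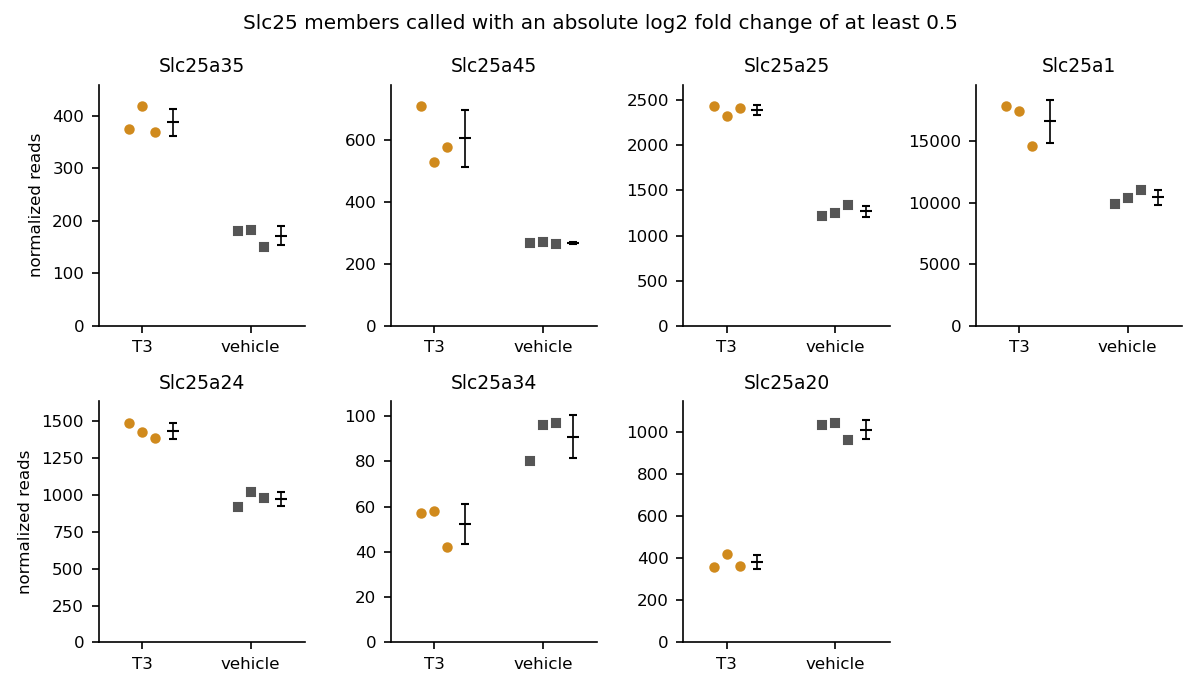
Normalized reads in each library for the 7 called members with an absolute log2 fold change of at least 0.5, T3 as circles and vehicle as squares, with the mean and SD of each group (n = 3) beside the points. In none of the 7 do the groups overlap, and Slc25a34 and Slc25a20 are the 2 with T3 below vehicle.

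The sequence before the transcription start is shown for the members with the largest rises and falls among the 36 that matched the RefSeq promoter table by gene ID. Each run is the 250 bases before the RefSeq start in GRCm38.p6, 5′ to 3′ on the strand of the gene, and capitals mark the nuclear receptor half-site AGGTCA on either strand.
Slc25a45, chr19:5877572-5877821, plus strand: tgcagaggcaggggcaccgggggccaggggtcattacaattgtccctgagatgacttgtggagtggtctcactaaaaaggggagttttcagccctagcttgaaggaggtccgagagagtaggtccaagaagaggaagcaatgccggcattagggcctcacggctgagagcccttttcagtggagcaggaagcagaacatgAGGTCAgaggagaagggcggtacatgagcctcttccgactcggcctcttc
Slc25a25, chr2:32451471-32451720, minus strand: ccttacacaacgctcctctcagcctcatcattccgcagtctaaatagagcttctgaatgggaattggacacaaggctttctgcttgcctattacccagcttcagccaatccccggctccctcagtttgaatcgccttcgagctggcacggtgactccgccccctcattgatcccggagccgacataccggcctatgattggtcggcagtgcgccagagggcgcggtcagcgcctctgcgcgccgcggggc
Slc25a20, chr9:108661886-108662135, plus strand: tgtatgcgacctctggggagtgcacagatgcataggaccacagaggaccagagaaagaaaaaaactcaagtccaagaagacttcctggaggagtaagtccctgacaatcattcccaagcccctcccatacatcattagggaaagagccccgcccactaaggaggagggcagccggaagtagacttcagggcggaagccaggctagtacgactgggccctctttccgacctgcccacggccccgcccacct
Slc25a34, chr4:141623835-141624084, minus strand: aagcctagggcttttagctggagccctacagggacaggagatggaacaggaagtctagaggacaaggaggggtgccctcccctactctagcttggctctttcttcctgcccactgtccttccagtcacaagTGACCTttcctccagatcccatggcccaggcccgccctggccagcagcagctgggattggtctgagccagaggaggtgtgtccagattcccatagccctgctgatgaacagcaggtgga
The half-site is the core of the elements that thyroid hormone receptors and many other nuclear receptors bind. It begins 50 bases before the start of Slc25a45, which rose, and, on the opposite strand, 119 bases before that of Slc25a34, which fell. The windows of Slc25a25 and Slc25a20 do not contain these letters. For Slc25a45 the RefSeq start lies 644 bases from the outer exon end in the deposited table, for Slc25a20 38 bases, and for Slc25a25 the start shown is 1 of 3 in the RefSeq table. Among the 46 windows of the 36 members 4 hold the half-site, of Slc25a34, Slc25a39, Slc25a45 and Slc25a47, and of all 32851 promoter windows 14% do. The paired form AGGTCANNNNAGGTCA occurs in 0.0152% of all windows, AGGTCANAGGTCA in 0.0335%, and neither in a window of a member. A match describes letters and does not show binding.

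The RNA of the family was concentrated in a few carriers. Slc25a5, the main ADP and ATP exchanger of dividing cells (chromosome X, 36795652 to 36798806, 4 exons), had 30752, 30675 and 30584 normalized reads with T3, against 24758, 24383 and 24724 with vehicle. Within each group these libraries differed little, and the rise was 1.25-fold (log2 0.32, SE 0.04, adjusted p = 0.00013). Slc25a5 made up 32.9% ± 0.743 of the summed level per kilobase with T3 and 31.9% ± 0.438 with vehicle. The phosphate carrier Slc25a3 (chromosome 10, 91116578 to 91123963, 8 exons), which imports the phosphate that ATP synthase uses, had 25943, 25714 and 24949 with T3, against 22350, 22888 and 23210 with vehicle. That rise was 1.12-fold (log2 0.16, SE 0.04, adjusted p = 0.00868) and was not called with equal column totals (adjusted p = 0.0648). Its share of the sum was 22.4% ± 0.125 with T3 and 24.2% ± 0.232 with vehicle. Slc25a1 made up 13.1% ± 1.09 with T3 and 9.95% ± 0.426 with vehicle, Slc25a39 8.17% ± 0.134 with T3 and 8.95% ± 0.207 with vehicle, and the other 43 genes shared the rest. Slc25a3 exons share 439 bases with an unnamed gene on the opposite strand. Levels of Slc25a5 and Slc25a4, which resemble each other and have processed copies, are uncertain, since how reads with several matches were treated was not stated.

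**Figure D3:**
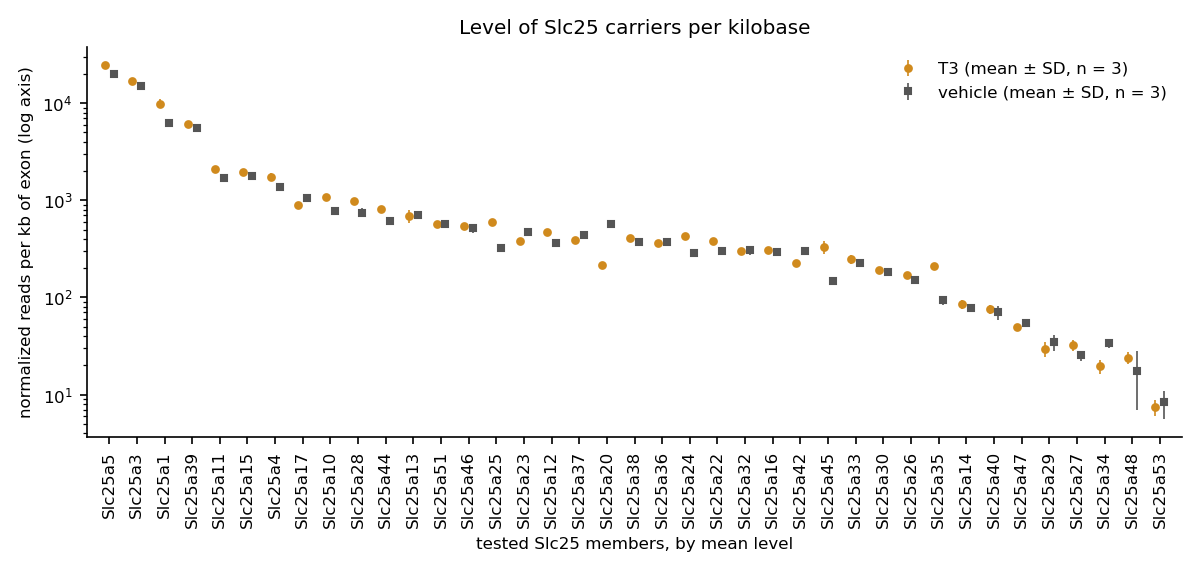
Level of 39 of the 40 tested members in normalized reads per kilobase of exon on a log axis, T3 as circles and vehicle as squares, mean ± SD (n = 3), ordered by mean level. Slc25a5, Slc25a3, Slc25a1 and Slc25a39 stand above the rest, and most pairs of symbols lie close together.

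Both tested adenine nucleotide exchangers rose, where 24% of all genes tested were called higher. Slc25a4, the exchanger typical of heart and skeletal muscle, had 1882, 2122 and 1817 normalized reads with T3, against 1596, 1437 and 1477 with vehicle, a rise of 1.29-fold (log2 0.37, SE 0.07, adjusted p = 0.00145). The groups did not overlap, although T3 replicate 2 stood above the other T3 libraries. Per kilobase the ratio of Slc25a4 to Slc25a5 was 0.0706 with T3 and 0.0682 with vehicle, and the libraries overlapped. Slc25a31, the exchanger of germ cells, had 1 read in 1 T3 library and 0 elsewhere.

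The calcium-regulated ATP-Mg and phosphate carriers, which set the adenine nucleotide content of the matrix, changed in both directions. Slc25a25 (chromosome 2, 32414487 to 32451470, 12 exons) had 2431, 2330 and 2412 normalized reads with T3, against 1218, 1251 and 1341 with vehicle, a rise of 1.88-fold (log2 0.91, SE 0.05, adjusted p = 5.28e-07). Its exons share 404 bases with Naif1 on the opposite strand, a gene at 176 ± 18.1 with T3 and 138 ± 2.31 with vehicle. Whether reads of 1 gene were counted for the other was not tested. Slc25a24 (chromosome 3, 109123149 to 109168409, 10 exons) had 1489, 1428 and 1384 with T3, against 921, 1019 and 977 with vehicle, a rise of 1.47-fold (log2 0.56, SE 0.05, adjusted p = 2.91e-05). Slc25a23, at 1283 ± 44.3 with T3 and 1573 ± 38 with vehicle, fell by 0.29 on the log2 scale (SE 0.05, adjusted p = 0.000667). The order of the 3 carriers per kilobase differed between the groups. With T3, Slc25a25 stood at 603 ± 13.5, Slc25a24 at 424 ± 15.6 and Slc25a23 at 382 ± 13.2 normalized reads per kilobase. With vehicle, Slc25a23 was the highest at 468 ± 11.3, followed by Slc25a25 at 320 ± 16.1 and Slc25a24 at 287 ± 14.5. Slc25a41, the fourth carrier of this type, had at most 2 reads in any library.

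All 3 tested carriers of di- and tricarboxylates rose, where 24% of all genes tested were called higher. Slc25a1, which exports citrate to the cytosol as the source of acetyl-CoA for lipid synthesis (chromosome 16, 17925211 to 17928219, 9 exons), had 17786, 17400 and 14541 normalized reads with T3, against 9879, 10334 and 11029 with vehicle. T3 replicate 3 was the lowest T3 library but still above every vehicle library, and the rise was 1.59-fold (log2 0.67, SE 0.08, adjusted p = 7.98e-05). Slc25a10, which exchanges malate or succinate for phosphate, stood at 4323 ± 71.1 with T3 and 3103 ± 93 with vehicle, a rise of 1.39-fold (adjusted p = 8.52e-06). Slc25a11, the carrier of 2-oxoglutarate and malate, rose 1.23-fold, with 3892 ± 139 with T3 and 3174 ± 95 with vehicle (adjusted p = 0.000391). Slc25a21, the oxoadipate carrier, was listed at 0 in the T3 libraries and at 4, 0 and 1 in the vehicle libraries.

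Of the aspartate and glutamate carriers, the paralogs Slc25a12 and Slc25a13 did not move alike. Both export aspartate in exchange for glutamate, a step of the malate-aspartate shuttle that carries reducing equivalents from cytosolic NADH into mitochondria. Slc25a13, the form typical of liver and the higher of the pair here, had 2269, 2383 and 1786 normalized reads with T3, against 2271, 2238 and 2154 with vehicle. T3 replicate 3 lay below every vehicle library and the other T3 libraries lay among or above them, and the difference was not called (log2 -0.06, 95% interval -0.27 to 0.15, adjusted p = 0.626). Without T3 replicate 3 the log2 fold change was 0.07, still not called. Slc25a12, the form typical of muscle and brain, rose 1.29-fold, with 1372 ± 53.3 with T3 and 1063 ± 44.8 with vehicle (log2 0.37, SE 0.05, adjusted p = 0.000352). Slc25a22, a glutamate importer, rose 1.26-fold, with 1086 ± 68.1 with T3 and 865 ± 79.7 with vehicle (adjusted p = 0.00566), and its relative Slc25a18 was listed at 0 in every library.

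Of the other amino acid carriers Slc25a15 and Slc25a44 rose, and Slc25a29 and Slc25a38 were not called. Slc25a15 exchanges ornithine and citrulline and is known for its part in the intestinal production of citrulline. It had 6829, 6887 and 6542 normalized reads with T3, against 6330, 6165 and 6094 with vehicle. The groups did not overlap, but the rise was 1.09-fold (log2 0.12, SE 0.04, adjusted p = 0.0232). Its call was lost with equal column totals (adjusted p = 0.217), with upper-quartile scaling (adjusted p = 0.111), without T3 replicate 1 (0.0901), T3 replicate 2 (0.0886), vehicle replicate 2 (0.0743) or vehicle replicate 3 (0.0605), and without the mean-variance trend (0.0598). Slc25a29, a carrier of basic amino acids, was lower in level, at 58.3 ± 10.2 with T3 and 68 ± 12.8 with vehicle, and was not called (adjusted p = 0.397). Slc25a2 had at most 4 reads in any library. Slc25a44, which imports branched-chain amino acids, had 3090, 3000 and 2685 with T3, against 2069, 2248 and 2300 with vehicle, a rise of 1.32-fold (log2 0.41, SE 0.06, adjusted p = 0.000524). Slc25a38, the glycine carrier needed for haem synthesis, stood at 649 ± 39.2 with T3 and 587 ± 13 with vehicle and was not called (adjusted p = 0.0916).

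Among the carriers of cofactors and nucleotides 2 were lower and 6 were not called, where 20.8% of all genes tested were called lower. Slc25a17, the peroxisomal carrier of coenzyme A, FAD and NAD+, had 1454, 1406 and 1559 normalized reads with T3, against 1764, 1784 and 1670 with vehicle. Every T3 library was the lower, and the gene fell by 0.24 on the log2 scale (SE 0.05, adjusted p = 0.00426). Slc25a42, a mitochondrial carrier of coenzyme A, fell by 0.40 on the log2 scale, with 719 ± 40.2 with T3 and 948 ± 22.9 with vehicle (SE 0.06, adjusted p = 0.000419). Slc25a16, which is also linked to coenzyme A, stood at 958 ± 42.3 with T3 and 916 ± 34.8 with vehicle and was not called (adjusted p = 0.373). The NAD+ carrier Slc25a51 was nearly equal, with 2524 ± 22.4 with T3 and 2527 ± 144 with vehicle (95% interval of the log2 fold change -0.11 to 0.10). The carriers of S-adenosylmethionine (Slc25a26, with 127 bases of exon shared with Lrig1 on the opposite strand), folate (Slc25a32) and pyrimidine nucleotides (Slc25a33 and Slc25a36) had log2 fold changes of 0.17, -0.03, 0.14 and -0.06 and were not called.

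Slc25a39, which imports glutathione, had 10420, 10281 and 10186 normalized reads with T3, against 9173, 9139 and 9733 with vehicle. The libraries did not overlap, and the rise was 1.1-fold (log2 0.14, SE 0.04, adjusted p = 0.0156). It was not called with equal column totals (adjusted p = 0.136), with upper-quartile scaling (0.0817), without T3 replicate 1 (0.0673) or without vehicle replicate 2 (0.0679). Its paralog Slc25a40 was far lower, at 210 ± 24.4 with T3 and 196 ± 33 with vehicle, and was not called (adjusted p = 0.549).

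The mitoferrins, which import iron for haem and iron-sulfur clusters, moved apart. Slc25a28, the widely expressed mitoferrin, had 1528, 1494 and 1456 normalized reads with T3, against 1004, 1200 and 1236 with vehicle, a rise of 1.31-fold (log2 0.39, SE 0.07, adjusted p = 0.0023). Slc25a37, the mitoferrin known from developing red cells, stood at 1630 ± 58.7 with T3 and 1833 ± 130 with vehicle, and it fell by 0.17 on the log2 scale (SE 0.06, adjusted p = 0.0398). The Slc25a37 call was lost without T3 replicate 1 (adjusted p = 0.149), T3 replicate 2 (0.0615), vehicle replicate 2 (0.13) or vehicle replicate 3 (0.134), without the filter on low values (0.0663) and without the mean-variance trend (0.093).

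None of the 3 carriers related to the uncoupling proteins was called. Of the 7 tested members of unsettled substrate 2 rose and 1 fell, as given above, and 4 were not called. Among all genes tested 44.8% were called. Slc25a30, the highest of the uncoupling protein relatives per kilobase, had 353, 311 and 322 normalized reads with T3, against 315, 306 and 303 with vehicle, and the groups overlapped (adjusted p = 0.373). Slc25a14 and Slc25a27 had log2 fold changes of 0.11 and 0.34 with adjusted p-values of 0.471 and 0.103. Among the members of unsettled substrate Slc25a46, which is known for a role in mitochondrial shape, was the highest per kilobase, with 2340, 2317 and 2496 with T3, against 2415, 2301 and 2006 with vehicle. Its groups overlapped (log2 0.09, SE 0.07, adjusted p = 0.289). Slc25a47, a carrier typical of liver, stood at 78.3 ± 5.03 with T3 and 87 ± 4.36 with vehicle (adjusted p = 0.367). Slc25a53 stood at 24.3 ± 4.51 with T3 and 27 ± 8.72 with vehicle (adjusted p = 0.797). Slc25a48 had 30, 39 and 38 with T3, against 8, 36 and 34 with vehicle. Vehicle replicate 1 alone was low, and without it the log2 fold change of 0.68 became 0.02. Slc25a43 had 3 to 7 reads per library and Slc25a54 was at 0 in every library. In all, 7 members did not reach the filter, none with more than 7 reads in a library, and 2 of them were at 0 throughout.

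The balance between related carriers was compared within each library as the log2 ratio per kilobase, for 10 pairs of which both genes were tested. With 3 libraries against 3 the smallest two-sided p of the exact permutation test is 0.1, which 6 pairs reached, with an adjusted p of 0.167 over the 10 pairs, so no pair can pass at 0.05. In all 6 the groups did not overlap, which with 3 against 3 is the same as reaching a p of 0.1 in this test. Slc25a25 over Slc25a23 was 1.58 with T3 and 0.684 with vehicle, and Slc25a24 over Slc25a23 was 1.11 with T3 and 0.614 with vehicle. For the mitoferrins Slc25a28 over Slc25a37 was 2.48 with T3 and 1.69 with vehicle. Slc25a16 over Slc25a42 was 1.35 with T3 and 0.976 with vehicle, and Slc25a12 over Slc25a13 was 0.688 with T3 and 0.511 with vehicle. The change was smallest for Slc25a10 over Slc25a11, at 0.519 with T3 and 0.457 with vehicle. The other 4 pairs overlapped, and for them the difference in log2 ratio was 0.20 or less.

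**Figure D4:**
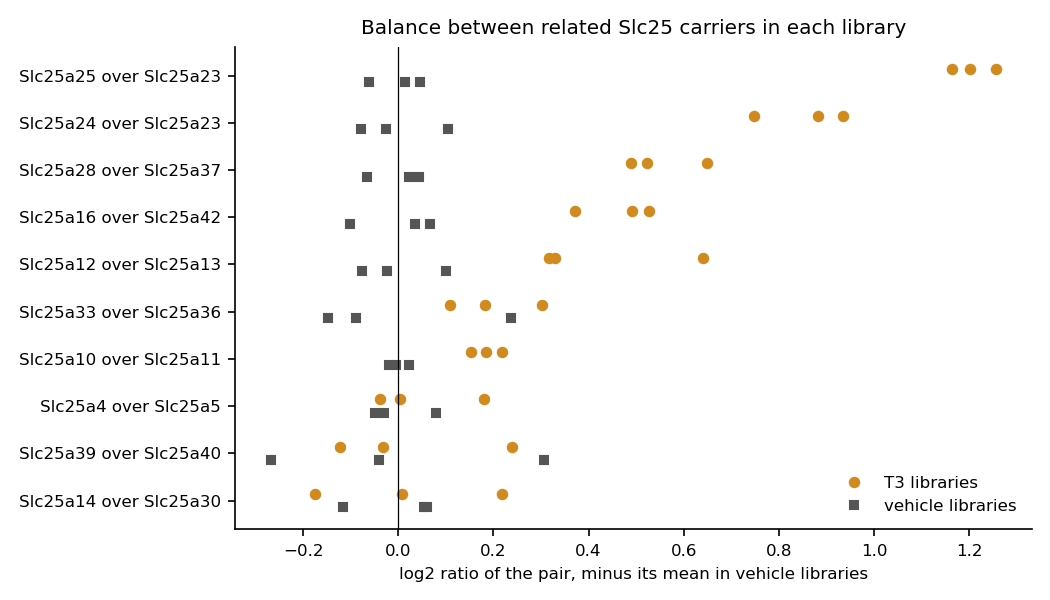
Log2 ratio per kilobase of related carriers in each library, minus the mean ratio of the vehicle libraries, T3 as circles and vehicle as squares. Circles and squares are apart in 6 of the 10 pairs, most for Slc25a25 over Slc25a23 with a difference of 1.21, and mixed in the other 4.

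Other genes of mitochondrial transport were read from 4 lists. Of the 5 carriers of the same protein family named otherwise, 3 were tested and 2 rose. Mtch2, an outer membrane insertase, rose 1.24-fold (adjusted p = 0.000191) and Ucp2, the widely expressed uncoupling protein, rose 1.19-fold with 20997 ± 525 with T3 and 17659 ± 882 with vehicle (adjusted p = 0.00188). Of 21 tested genes of other mitochondrial transporters 12 rose and 3 fell, beside 24% and 20.8% of all genes tested, with a median log2 fold change of 0.13, beside -0.01 over all genes. After either other scaling 9 were called higher and 4 lower. Cpt1a, which makes acylcarnitines at the outer membrane, rose 3.30-fold, Letm1, a cation exchanger of the inner membrane, 1.78-fold and Slc8b1, the sodium and calcium exchanger, 1.42-fold. Sfxn3 and Sfxn2, of the sideroflexin family of amino acid carriers, fell 1.54-fold and 1.33-fold, and Cpt2 fell 1.21-fold.

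Genes of the steps around Slc25a20 did not move together. Cpt1a had 10867, 10604 and 10792 normalized reads with T3, against 3230, 3303 and 3233 with vehicle (log2 1.72, SE 0.03, adjusted p = 1.48e-09). Slc25a20 carries the product of Cpt1a inward and fell, as given above. Cpt2 moves the acyl group from carnitine to coenzyme A in the matrix. It had 2461, 2344 and 2309 with T3, against 2905, 2789 and 2945 with vehicle (log2 -0.28, SE 0.04, adjusted p = 0.000534). Crat, which forms short acylcarnitines and was chosen after its values were seen, stood at 1541 ± 16.6 with T3 and 1099 ± 34 with vehicle and rose 1.4-fold (adjusted p = 2.07e-05). The library groups overlapped at none of these 4 called genes, and they did not overlap at 54.9% of all genes tested.

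Enzymes that make or use the substrates of the carriers included 13 of 21 tested that were called higher and 3 lower, beside 24% and 20.8% of all genes tested, and their median log2 fold change was 0.36. Me2, the mitochondrial malic enzyme, rose 2.28-fold, to 10300 ± 227 with T3, against 4510 ± 83 with vehicle (adjusted p = 1.69e-08). Got1, the cytosolic aspartate aminotransferase of the malate-aspartate shuttle, rose 2.21-fold, to 4428 ± 423 with T3, against 1997 ± 95.8 with vehicle (adjusted p = 1.13e-06). Gpd1, the cytosolic enzyme of the glycerol phosphate shuttle, rose 1.79-fold. In the malate-aspartate shuttle, a set put together after its values were seen, Got1, Got2, Mdh1, Mdh2, Slc25a11 and Slc25a12 rose, and Slc25a13 was not called. Bcat2, the mitochondrial aminotransferase of branched-chain amino acids, had 373, 382 and 465 with T3, against 685, 665 and 663 with vehicle, and fell by 0.73 on the log2 scale (SE 0.09, adjusted p = 0.000116). Slc25a44, which feeds Bcat2, was higher in the same libraries. Me1 fell 1.29-fold and Glud1, glutamate dehydrogenase, 1.2-fold.

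Of 12 tested genes of the route that brings Slc25 precursors into the inner membrane 3 rose, 3 fell and 6 were not called. These shares lie near those of all genes tested, of which 24% were called higher and 20.8% lower. After either other scaling 1 gene was called higher and 4 lower. Timm22, the insertase subunit for carrier proteins, rose 1.19-fold, with 1047 ± 33.3 with T3 and 883 ± 13.1 with vehicle (adjusted p = 0.00278). Timm10 and Tomm40 rose 1.12-fold and 1.11-fold, and both calls were lost with equal column totals (adjusted p = 0.149 and 0.151). Tomm20 fell 1.14-fold (adjusted p = 0.00442), Tomm70a, the receptor for carrier precursors, 1.11-fold and Agk 1.2-fold. The number called higher was 1 without vehicle replicate 2, and the number called lower was 1 without T3 replicate 1, T3 replicate 2, vehicle replicate 1 or vehicle replicate 2.

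**Figure D5:**
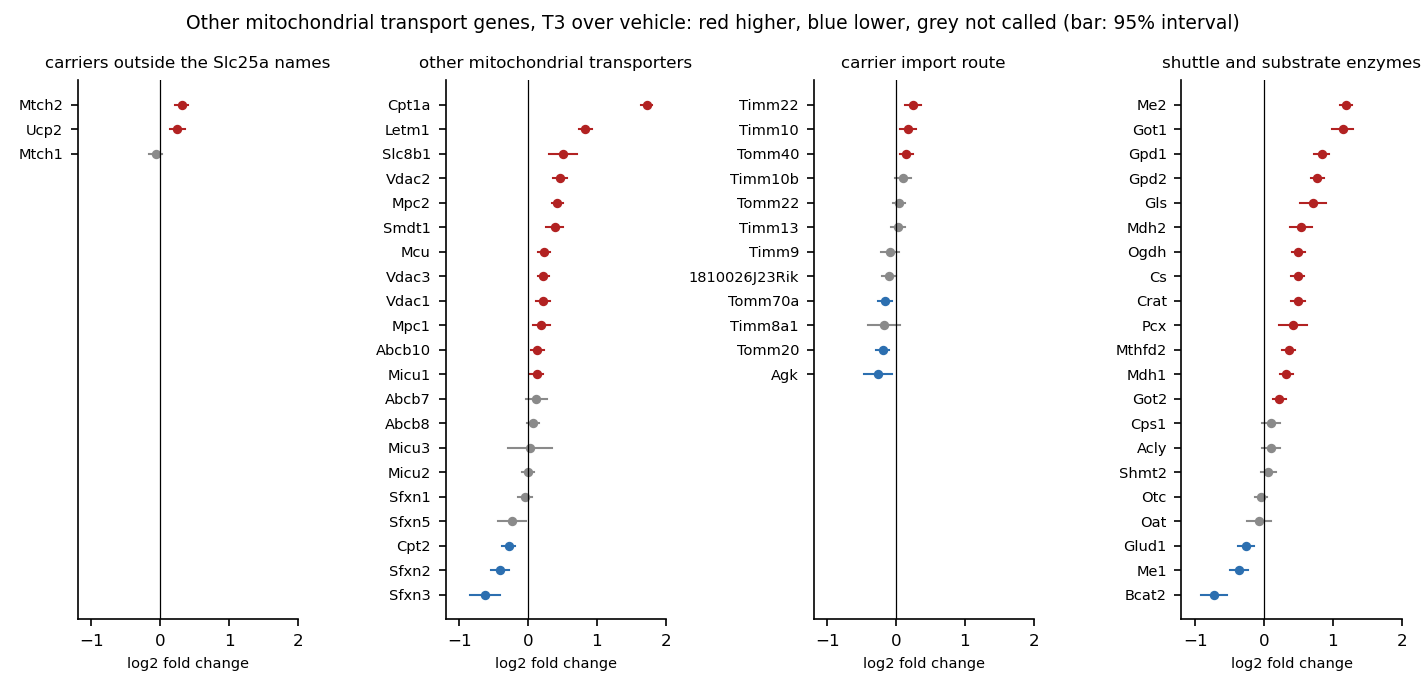
Log2 fold change of the other mitochondrial transport genes, T3 over vehicle, with 95% intervals, in 4 lists. Red marks genes called higher, blue genes called lower and grey genes not called, and Cpt1a at 1.72 and Me2 at 1.19 stand furthest to the right.

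The authors' deposited table gave 22 of the 47 members an adjusted p under 0.05, and all 22 were called here in the same direction. Slc25a37 was called here only. The libraries behind both tests are the same, so the match between them adds no evidence.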

How the data were processed

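Per the submitters' processing notes, STAR, Subread and DESeq2 were used, without versions; strand setting, annotation and handling of multiply matching reads are not given in the sources used here. Libraries are directional, per the labels' protocols. Column names give mm10 (GRCm38) as the build. The deposited sample columns are whole-number scores, reads per gene that the authors scaled between libraries and then rounded: the mean of the 6 columns equalled the deposited mean column to within 0.833 in every gene. Log2 fold changes, p-values, exon lengths and positions stand beside them in the authors' table.

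Scaling factors read from gaps and doublings among low values gave an estimated 29700000 to 31100000 reads per T3 library and 26100000 to 30800000 per vehicle library. On simulated libraries the largest error of a factor was 0.364%. Since rounding merged neighbouring values, the original counts cannot be had back exactly, and a count test was left out.

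The test was limma 3.58.1 (R 4.3.3, statmod 1.5.0) on log2(value + 1) with a mean-variance trend and no replicate block, on genes with at least 10 in at least 3 libraries, adjusted over all 13052. Fold changes are on that log2 scale, where the added 1 draws the log ratios of low genes towards no change. They were not smaller than the authors' values at every low gene. Slc25a48 stood at 0.68 here and at 0.42 in the authors' table. On data simulated for T3 against vehicle, with 50 genes changed at each size and 13047 tested, it recovered 54% of genes changed 1.3-fold, 82% at 1.5-fold and 98% at 2-fold, and 4 of 171 calls were genes with no change. The simulation used an assumed spread and changed far fewer genes than the 44.8% called in these libraries. More of the member calls lay below 1.3-fold, a size it did not cover, than above it. These rates therefore cannot be carried over to the member calls. Mean chi-square per gene between libraries of a group ran from 4.74 to 14.9, above sampling noise, so all 6 were treated as distinct.

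Members, substrate groups, pairs and lists were chosen with earlier results of these data known. Values in every library are given for called members with an absolute log2 fold change of at least 0.5 and for the highest member per kilobase of each substrate group; from each list the 3 largest rises and 3 largest falls are named. A few further members and partner genes are given in full that this rule does not ask for. Protein sequences are not shown, and 1 tested member that the totals count is not reported here. Alternatives were other scalings, pseudocounts, filters, thresholds and variance models, a replicate block and leaving out each library. Figures and pair tests used Python 3.11.15.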

Additional observations from a re-analysis of the deposited data

How the results depend on the processing

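Of the 23 called members, 18 kept their call and direction in all 15 refits. The calls of Slc25a3, Slc25a15, Slc25a37 and Slc25a39 were lost in some, as given with each, and no called member reversed. Of the 17 members not called, none was called in any refit, and the sign of 7 changed in some. The cause of these changes was not tested. Leaving out each library in turn gave 14 to 17 members called higher, 5 to 6 lower, a median log2 fold change of 0.13 to 0.16 (0.139 with all), and 4497 to 5895 genes called in all. That median was 0.0935 after upper-quartile scaling and 0.0732 after scaling to equal column totals, where the median of all genes was -0.0547 and -0.0749. The summed level per kilobase, T3 over vehicle, was 1.17 and 1.15 under these scalings. Over all genes, 53.6% of calls were higher, against 43% and 38.8% under the same scalings.

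For the import route, 1 gene was called higher under either scaling and at a threshold of 0.01, and 1 lower at that threshold. Without single libraries 1 to 3 of its genes were higher and 1 to 4 lower. Mtch1 made 1 call lower among the carriers named otherwise with equal column totals. Without single libraries the other transporters gave 9 to 12 higher. Over the same refits the difference in log2 ratio ran from 1.18 to 1.23 for Slc25a25 over Slc25a23, from 0.81 to 0.91 for Slc25a24 over Slc25a23 and from 0.32 to 0.48 for Slc25a12 over Slc25a13. It changed sign for Slc25a4 over Slc25a5 (-0.02 to 0.09), Slc25a39 over Slc25a40 (-0.10 to 0.18) and Slc25a14 over Slc25a30 (-0.08 to 0.11).

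Replicate numbers did not pair the libraries: deviations of same-numbered libraries correlated at -0.0701, 0.0278 and -0.0568, and not every library correlated best with its own number. With the number as a replicate block 17 members were higher and 6 lower, 5405 genes were called in all, and no member changed its call. At their low levels, changes of the members under 10 reads were not detectable at this depth.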
